A study of Rattus norvegicus with 9 samples.

Results

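Genes of the VEGF, angiopoietin and TIE families were examined in cultured rat cardiac fibroblasts of 3 ages. They were taken by name from the count table of 17337 genes: the ligands Vegfa, Vegfb, Vegfc, Figf (an older symbol of Vegfd) and Pgf, the angiopoietins Angpt1 and Angpt2, and the receptors Tie1, Tek and Kdr, 10 genes in all. The list follows the families, and all 10 passed the filter on low counts. The cells were isolated from the hearts of Sprague Dawley rats at embryonic day 18 (fetal), postnatal day 1 (neonatal) or 7 weeks (adult), with 3 libraries per age. All cultures were at passage 0, grown until confluent in DMEM with 10% fetal bovine serum, antibiotics and 0.1 mM ascorbic acid, and total RNA was sequenced. No allele, treatment or sort is named in the labels, and the series asks how expression in these cells differs with age. The labels do not say whether libraries of 1 age came from separate animals or flasks, so p-values measure the spread between these libraries, which may be technical.

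VEGF ligands are secreted growth factors that act on receptor tyrosine kinases of blood and lymphatic endothelial cells. VEGF-A drives the sprouting of blood vessels through Kdr (VEGFR2), VEGF-B and placental growth factor (Pgf) bind Flt1 (VEGFR1), and VEGF-C and VEGF-D act on Flt4 (VEGFR3) and Kdr and are best known for the growth of lymphatic vessels. Angiopoietin-1 (Angpt1) activates the receptor Tek (TIE2) and stabilises vessels, angiopoietin-2 (Angpt2) antagonises it in many settings, and Tie1 is a partner receptor of Tek. In the heart, fibroblasts, cardiomyocytes and mural cells are sources of the ligands, whereas Kdr, Tek and Tie1 are classically expressed by endothelial cells.

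Library totals ran from 13392825 to 22850491 assigned counts. Abundances are counts per 1000000 assigned counts (CPM) on scaled library sizes, given as mean ± SD over n = 3 libraries per age. Levels of different genes are compared as CPM per kilobase of exon, except in marker sums and where raw counts are named. A gene was called where the edgeR quasi-likelihood test gave an adjusted p under 0.05 over all 11337 genes tested. Fetal replicate 3 stood apart from the other fetal libraries. Its summed lung epithelial markers reached 116 CPM, against 2.16 and 1.81 CPM in fetal replicates 1 and 2. Most of the 116 CPM was Cldn18 (58.5 CPM), Epcam (47.0 CPM) and Nkx2-1 (9.83 CPM). Of the same list, Sftpb and Sftpa1 were at 0 in every library, and Sftpc had 14 counts in fetal replicate 3. The summed fibroblast markers of fetal replicate 3 were at 23654 CPM, against 50437 and 47658 CPM. Most of that sum was Col1a1 (14800 CPM, against 32990 and 30314) and Col3a1 (7294 CPM, against 15888 and 15731). Pdgfra (151 CPM, against 106 and 109) and Postn (1104 CPM, against 891 and 927) went the other way. Marker sums of other cell types also moved with age. Macrophage markers ran from 14.7 to 71.1 CPM in fetal, 166 to 182 CPM in neonatal and 4383 to 6072 CPM in adult libraries. The 71.1 CPM was in fetal replicate 3, against 15.2 and 14.7 CPM in fetal replicates 1 and 2. Cardiomyocyte markers ran from 9735 to 13705, 6303 to 6993 and 306 to 321 CPM, most of the adult sum being Tnnt2 at 303 to 316 CPM. Fibroblast markers ran from 67927 to 74193 CPM in neonatal and 22236 to 29822 CPM in adult libraries, again mostly Col1a1 and Col3a1. Of the 10 markers, 4 were called higher and 3 lower in adult than in fetal cells (70%, beside 70.5% of all genes). Among the fibroblast markers Col1a2 was under 1 CPM in every library, while Col1a1 was not low at any age. In cultures such as these, fewer cells of a type and less RNA per cell cannot be told apart. The part of these cells in the results below was not tested.

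Between fetal and neonatal cells, 6 of the 10 genes were called, all higher in neonatal cells: Figf, Angpt1, Angpt2, Tie1, Tek and Kdr. Of all genes tested, 36.3% were called in that comparison, 18.3% higher and 18.0% lower. Between fetal and adult cells 6 of the 10 were called, with Vegfa, Vegfb, Figf, Angpt1 and Tie1 higher and Kdr lower in adult cells, where 70.5% of all genes were called, 34.9% higher and 35.5% lower. Between neonatal and adult cells 7 of the 10 were called, with Vegfa, Vegfb, Figf and Tie1 higher and Angpt2, Tek and Kdr lower in adult cells, where 63.5% of all genes were called, 31.6% higher and 31.8% lower. In the test of any difference among the 3 ages 8 of the 10 were called, against 77.6% of all genes, so the last 3 shares lay close to the background or below it. The libraries of the ages compared did not overlap for 7 of the 10 genes from fetal to neonatal, 7 from fetal to adult and 8 from neonatal to adult cells, against 57.4%, 71.8% and 76.1% of all genes. The median log2 fold change of the 10 genes was 1.06 from fetal to neonatal, 0.82 from fetal to adult and 0.33 from neonatal to adult cells, against -0.01 over all genes tested in each comparison. Figf, Tie1 and Kdr differed in all 3 pairs of ages, and Vegfc and Pgf in none. Without fetal replicate 3, 8 of the 10 genes were called from fetal to neonatal, where 40.6% of all genes were called in the same fit, and 8 from fetal to adult cells, where 74.8% were.

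**Figure D1:**
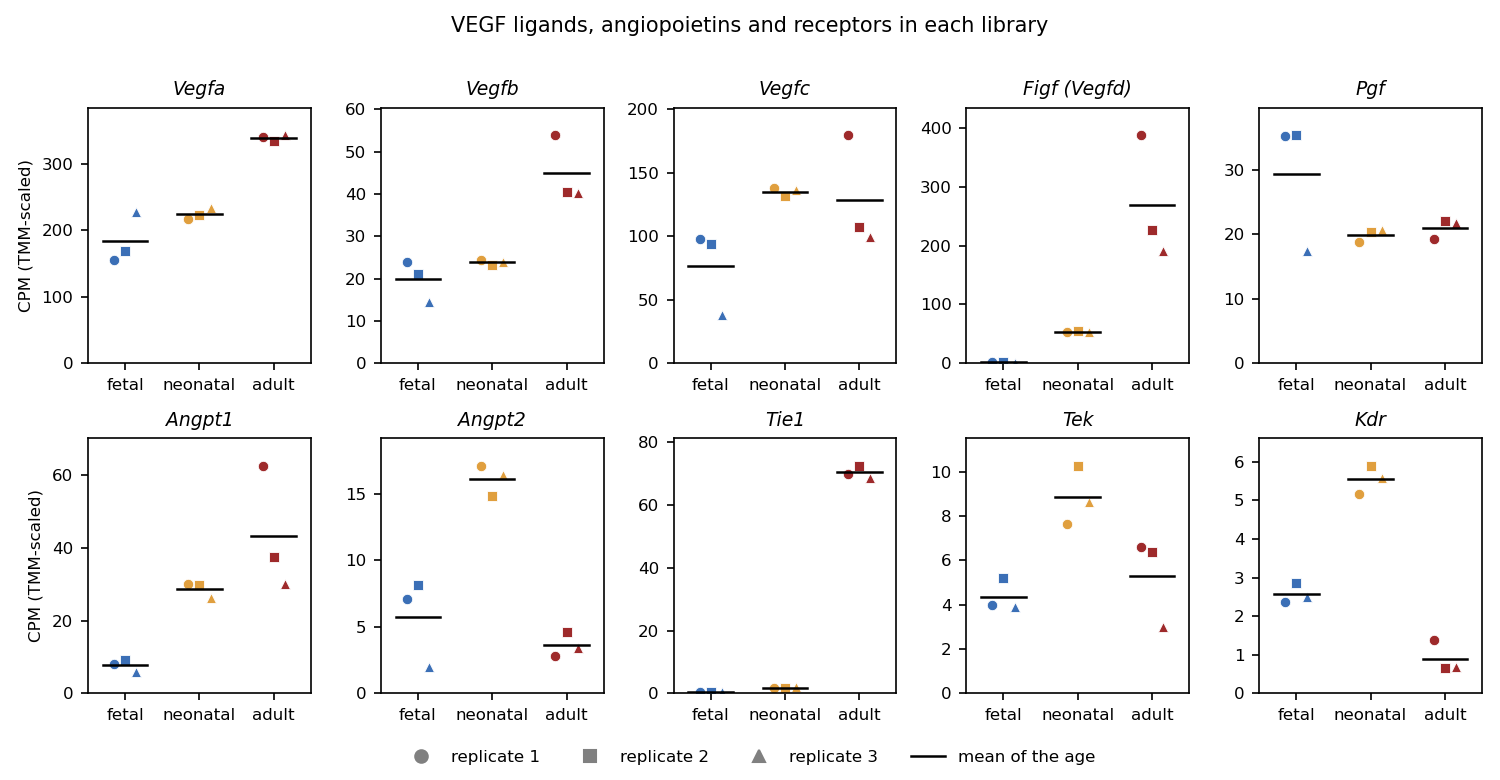
CPM of each of the 10 genes by age, on linear axes that start at 0 and differ between genes, with 1 point per library (shape: replicate) and a line at the mean of the 3 libraries. Vegfa, Vegfb, Figf, Angpt1 and Tie1 have every adult library above all the others, and Angpt2, Tek and Kdr have every neonatal library above all the others.

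Vegfa (chromosome 9, 17340341 to 17355680, plus strand, rn6), the oxygen-regulated ligand of blood vessel growth, had the narrowest spread among adult libraries of the VEGF ligands relative to its level. It measured 154, 169 and 227 CPM in fetal replicates 1, 2 and 3, 216, 223 and 233 CPM in neonatal replicates and 339, 333 and 343 CPM in adult replicates. Every adult library lay above every other library, while fetal replicate 3 lay within the neonatal range. The mean was 183 ± 38.4 CPM in fetal, 224 ± 8.196 CPM in neonatal and 338 ± 4.78 CPM in adult cells. Vegfa was 1.85-fold higher in adult than in fetal cells (log2 0.88, SE 0.125, edgeR adjusted p = 0.000171) and 1.51-fold higher than in neonatal cells (log2 0.60, SE 0.125, edgeR adjusted p = 0.00239). The fetal to neonatal difference did not pass (log2 0.29, edgeR adjusted p = 0.0990). That call turned on 1 library, because without fetal replicate 3 the log2 fold change was 0.47 (edgeR adjusted p = 7.81e-05, with a range of 7.81e-05 to 0.627 over the alternatives).

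Vegfb (chromosome 1, 222239020 to 222242644, minus strand) encodes a ligand of Flt1 linked to cardiac muscle. It measured 23.9, 21.1 and 14.3 CPM in fetal, 24.4, 23.2 and 23.95 CPM in neonatal and 53.9, 40.5 and 40.2 CPM in adult replicates 1 to 3. The adult libraries again stood above all the others, and the neonatal libraries lay close together at 23.9 ± 0.580 CPM. Vegfb was 2.27-fold higher in adult than in fetal cells (19.8 ± 4.92 against 44.9 ± 7.80 CPM, log2 1.18, SE 0.182, edgeR adjusted p = 0.000292) and 1.88-fold higher than in neonatal cells (log2 0.91, SE 0.181, edgeR adjusted p = 0.00175). From fetal to neonatal cells the log2 fold change was 0.27 (edgeR adjusted p = 0.270).

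Figf (chromosome X, 31817953 to 31851786, minus strand), which encodes VEGF-D, had the largest rise among the ligands. It measured 2.59, 2.47 and 0.850 CPM in fetal replicates 1, 2 and 3, 52.8, 54.2 and 53.0 CPM in neonatal replicates and 388, 226 and 191 CPM in adult replicates. The 3 ages did not overlap, and adult replicate 1 lay well above the other adult libraries. Figf was 26.7-fold higher in neonatal than in fetal cells. From neonatal to adult cells it rose a further 5.03-fold (log2 2.33, SE 0.301, edgeR adjusted p = 0.000169). Over the whole interval it rose 134-fold, with a mean of 1.97 ± 0.972 CPM in fetal and 268 ± 105 CPM in adult cells (log2 7.07, SE 0.402, edgeR adjusted p = 7.71e-07). Without fetal replicate 3, in which Figf was lowest, the fetal mean was 2.53 CPM and the log2 fold changes were 4.40 to neonatal and 6.72 to adult cells, both still called.

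The 250 bases before the start of Figf are shown because this ligand changed most, and those of Tie1, the receptor that changed most, are shown beside them. Both come from RefSeq on the build GRCr8, at chrX:33739893-33740142 and chr5:137304982-137305231, each on the minus strand and written 5′ to 3′ in the direction of transcription. Capitals mark NGGAAG, the core bound by ETS factors, on either strand, and the TATA box TATAAA.
Figf: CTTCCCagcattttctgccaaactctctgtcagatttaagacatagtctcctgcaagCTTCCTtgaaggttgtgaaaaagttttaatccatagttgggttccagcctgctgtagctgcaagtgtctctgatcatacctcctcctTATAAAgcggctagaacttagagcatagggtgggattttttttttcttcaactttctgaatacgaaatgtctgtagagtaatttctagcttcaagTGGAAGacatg
Tie1: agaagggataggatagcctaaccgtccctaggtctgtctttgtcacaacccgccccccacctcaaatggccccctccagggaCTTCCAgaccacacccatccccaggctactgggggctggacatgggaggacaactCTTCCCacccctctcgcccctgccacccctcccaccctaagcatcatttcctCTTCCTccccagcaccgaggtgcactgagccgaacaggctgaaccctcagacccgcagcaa
The Figf sequence held 3 matches to NGGAAG, at positions -250, -193 and -11 from the start, and 1 match to TATAAA at -106, farther upstream than the usual place of a TATA box. The Tie1 sequence held 3 matches to NGGAAG, at -168, -113 and -61, and no TATAAA. Of 33469 rat sequences of the same length before a start, 63.1% held NGGAAG and 12.9% held TATAAA, so a match to the first is common. The sequences differed in base composition, with 40.8% G and C in Figf and 61.6% in Tie1. RefSeq entries were matched for 7 of the 10 genes, with Vegfa having a pair of starts. Searches of the same sequences on both strands for the hypoxia response cores ACGTG and GCGTG, found in 16.6% and 25.9% of all sequences, gave GCGTG in Vegfb, Pgf and Kdr, and neither in Vegfa, Vegfc, Figf or Tie1. No sequence of the 7 genes held the AP-1 site TGANTCA or the octamer ATGCAAAT, which 6.34% and 1.56% of all sequences hold. Sites farther upstream than 250 bases or past the start were not searched in any gene, Vegfa included.

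Vegfc (chromosome 16, 40440371 to 40555178, minus strand), the other ligand of Flt4, did not follow Figf. It measured 97.9, 94.1 and 38.1 CPM in fetal, 138, 131 and 136 CPM in neonatal and 180, 107 and 99.3 CPM in adult replicates 1 to 3. The neonatal libraries lay above all fetal libraries, whereas the adult libraries reached from just above the fetal range to above the neonatal one. The means were 76.7 ± 33.5, 135 ± 3.43 and 129 ± 44.3 CPM. No pair of ages passed in edgeR (fetal to neonatal log2 0.82, SE 0.342, adjusted p = 0.0924, and fetal to adult log2 0.75, SE 0.343, adjusted p = 0.0793). DESeq2 called both (log2 0.81, adjusted p = 0.0343, and log2 0.75, adjusted p = 0.0309), with ranges over the alternatives of 0.0343 to 0.177 and 0.0309 to 0.287. Between neonatal and adult cells the log2 fold change was -0.07 (SE 0.340, edgeR adjusted p = 0.866).

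Pgf (chromosome 6, 108994016 to 109004598, minus strand), placental growth factor, was the one ligand with its highest mean in fetal cells. It measured 35.3, 35.3 and 17.3 CPM in fetal, 18.7, 20.4 and 20.6 CPM in neonatal and 19.2, 22.0 and 21.6 CPM in adult replicates 1 to 3. Fetal replicates 1 and 2 stood above every other library, and fetal replicate 3 was the lowest of all 9. With all libraries no pair of ages passed (fetal to neonatal log2 -0.56, edgeR adjusted p = 0.0897, and fetal to adult log2 -0.49, edgeR adjusted p = 0.0917). Without fetal replicate 3 the fetal mean was 35.3 CPM and both were called, at log2 -0.83 (edgeR adjusted p = 2.78e-05) and log2 -0.76 (edgeR adjusted p = 1.31e-05). Scaling by library size alone also called both (edgeR adjusted p = 0.0205 and 0.0288), and the adjusted p ranged over the alternatives from 2.78e-05 to 0.242 and from 1.31e-05 to 0.271.

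The mix of the 5 VEGF ligands differed with age. Shares were taken within each library from counts per exon length, which scaling between libraries cannot alter. In fetal cells Vegfa made up 38.6 ± 15.8% and Vegfc 37.3 ± 11.6% of the summed ligand signal, with Pgf at 14.5 ± 3.07%, Vegfb at 8.66 ± 0.866% and Figf at 0.998 ± 0.381%. The wide fetal spread came from fetal replicate 3, where Vegfa was 56.7% against 28.1% and 30.9% in the other fetal libraries. In neonatal cells Vegfc was the leading ligand at 42.1 ± 0.945%, followed by Vegfa at 27.7 ± 0.731% and Figf at 17.4 ± 0.431%. In adult cells Figf led with 51.6, 44.4 and 40.6% in replicates 1, 2 and 3, a mean of 45.5 ± 5.59%, ahead of Vegfa at 23.2 ± 5.44% and Vegfc at 21.0 ± 1.55%. Pgf was down to 6.21 ± 0.299% in neonatal and 3.66 ± 1.06% in adult cells. The summed level of the 5 ligands was 126.6 ± 21.7 CPM per kilobase in fetal, 204.9 ± 2.88 in neonatal and 386.1 ± 102 in adult cells, and the ages did not overlap. With raw counts in place of counts per length, Vegfa led in adult cells at 43.2%, against 32.7% for Figf. It then also led in neonatal cells at 49.1%, against 29.7% for Vegfc. These shares are a description and were not tested.

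**Figure D2:**
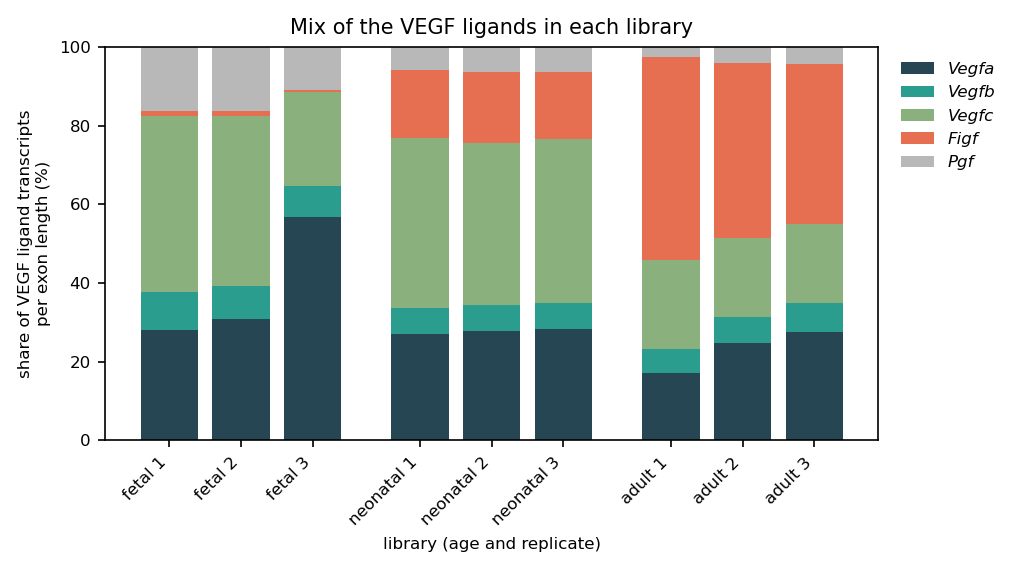
Share (percent) of each of the 5 VEGF ligands in their summed counts per exon length, in stacked bars from 0 to 100, 1 bar per library. Figf is about 1% of the fetal mix, 17.05 to 17.9% of the neonatal mix and 40.6 to 51.6% of the adult mix.

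Angpt1 (chromosome 7, 81342374 to 81592299, minus strand), the activating ligand of Tek, was lowest in fetal cells. It measured 8.16, 9.04 and 6.004 CPM in fetal, 29.9, 29.9 and 26.3 CPM in neonatal and 62.5, 37.3 and 30.0 CPM in adult replicates 1 to 3. The 3 ages did not overlap, although the lowest adult library lay just above the neonatal range. It rose 3.70-fold from fetal to neonatal cells (log2 1.89, SE 0.268, edgeR adjusted p = 0.00107) and 5.57-fold from fetal to adult cells (7.73 ± 1.56 against 43.3 ± 17.1 CPM, log2 2.48, SE 0.271, edgeR adjusted p = 3.66e-05). Between neonatal and adult cells the difference did not pass (log2 0.59, SE 0.250, edgeR adjusted p = 0.0645). It was called by DESeq2 (adjusted p = 0.0349) and without adult replicate 3 (log2 0.80, edgeR adjusted p = 0.0155), and the range over the alternatives was 0.0155 to 0.265.

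Angpt2 (chromosome 16, 75966480 to 76016147, plus strand), the context-dependent antagonist, was highest in neonatal cells. It measured 7.13, 8.11 and 2.02 CPM in fetal, 17.1, 14.8 and 16.4 CPM in neonatal and 2.83, 4.62 and 3.44 CPM in adult replicates 1 to 3. The neonatal libraries stood above all the others, and the fetal and adult ranges overlapped through fetal replicate 3. Angpt2 fell 4.42-fold from neonatal to adult cells (16.1 ± 1.17 against 3.63 ± 0.910 CPM, log2 -2.14, SE 0.430, edgeR adjusted p = 0.00199). It rose 2.78-fold from fetal to neonatal cells (log2 1.48, SE 0.404, edgeR adjusted p = 0.0206). Leaving out neonatal replicate 1, 2 or 3 took it past the threshold (edgeR adjusted p = 0.0638, 0.0536 and 0.0603), although the log2 fold change stayed between 1.44 and 1.54, and the range over the alternatives was 0.000409 to 0.0638. The adult to fetal difference did not pass (log2 -0.67, edgeR adjusted p = 0.196) but was called without fetal replicate 3 (log2 -1.07, edgeR adjusted p = 0.000309, in a range over the alternatives of 0.000309 to 0.540). The summed level of 7 markers of mural cells, the pericytes and smooth muscle cells around vessels, was 607 to 1096 CPM in fetal, 1393 to 1464 CPM in neonatal and 206 to 363 CPM in adult libraries, although not each marker followed the sum: Des, for one, was higher in fetal (377 ± 34.8 CPM) than in neonatal cells (229 ± 16.1 CPM). Their part in the Angpt2 level was not tested.

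The balance of the angiopoietins was compared as the ratio of Angpt2 to Angpt1 per exon length within each library. It was 0.729, 0.748 and 0.280 in fetal, 0.477, 0.414 and 0.520 in neonatal and 0.0378, 0.103 and 0.0959 in adult replicates 1 to 3. Every adult library lay below every other library, and fetal replicate 3 lay below the neonatal libraries while the other fetal libraries lay above them. On the log2 scale the adult ratio minus the fetal one was -2.89 and the adult minus the neonatal one -2.70, each with an exact two-sided permutation p of 0.1 (adjusted p = 0.12 over 6 ratio tests). With 3 libraries against 3 the exact permutation test cannot give a p below 0.1, so neither passed 0.05. The neonatal to fetal difference was -0.19 (exact permutation p = 0.8), and its sign turned without fetal replicate 1 (0.03) or 2 (0.05).

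The same comparison within the lymphatic ligands showed the opposite course. The ratio of Figf to Vegfc per exon length was 0.0278, 0.0275 and 0.0234 in fetal, 0.401, 0.433 and 0.408 in neonatal and 2.26, 2.21 and 2.02 in adult replicates 1 to 3. It differed little within an age, also where both genes varied together, as in fetal replicate 3 and adult replicate 1. The log2 differences were 3.98 from fetal to neonatal, 6.37 from fetal to adult and 2.39 from neonatal to adult cells, each with the smallest exact permutation p the design allows, 0.1 (adjusted p = 0.12).

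**Figure D3:**
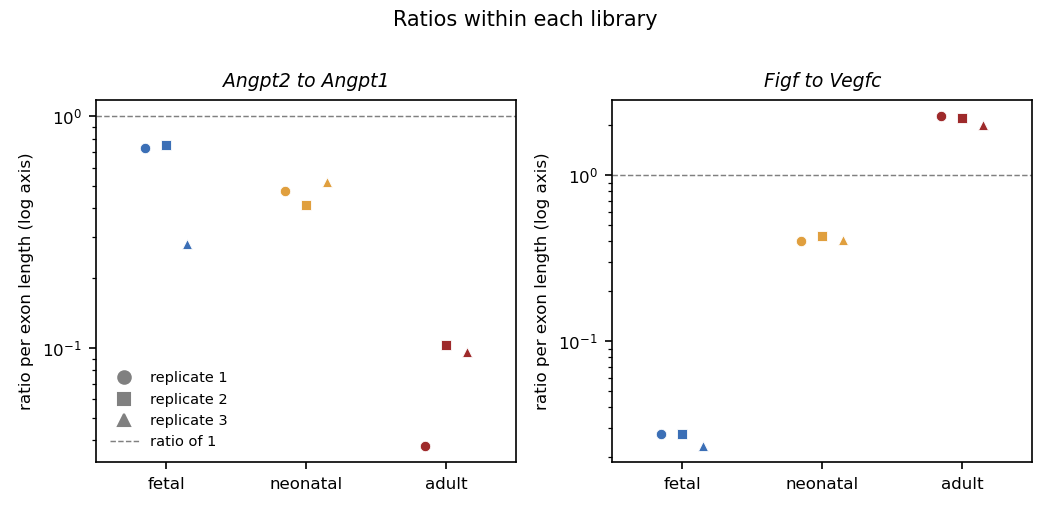
Ratio of Angpt2 to Angpt1 and of Figf to Vegfc in each library, from counts per exon length, on a log axis, with 1 point per library. The adult Angpt2 to Angpt1 ratios lie from 0.0378 to 0.103, below all others, and the Figf to Vegfc ratio passes 1 only in the adult libraries.

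Per exon length the receptors had the lowest means of the 10 genes in fetal and neonatal cells. Tie1 (chromosome 5, 137294546 to 137321050, minus strand), the partner receptor of Tek, measured 0.486, 0.353 and 0.425 CPM in fetal, 1.596, 1.67 and 2.14 CPM in neonatal and 69.9, 72.5 and 68.6 CPM in adult replicates 1 to 3. These rest on 9, 8 and 8 counts in fetal, 29, 36 and 33 in neonatal and 914, 1004 and 916 counts in adult libraries. The ages did not overlap, and no adult library stood apart. Tie1 rose 4.22-fold from fetal to neonatal cells (log2 2.08, SE 0.188, edgeR adjusted p = 8.86e-05) and 39.2-fold from neonatal to adult cells (log2 5.29, SE 0.121, edgeR adjusted p = 3.86e-09). From fetal to adult cells, 0.421 ± 0.0668 against 70.4 ± 1.99 CPM, the rise was 166-fold (log2 7.37, SE 0.145, edgeR adjusted p = 8.90e-10), the largest of the 10 genes.

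Kdr (chromosome 14, 34727677 to 34787126, plus strand), the main signalling receptor of VEGF-A, went the other way in adult cells. It measured 2.38, 2.87 and 2.497 CPM in fetal, 5.17, 5.90 and 5.57 CPM in neonatal and 1.38, 0.650 and 0.674 CPM in adult replicates 1 to 3, the last from 18, 9 and 9 counts. The 3 ages did not overlap. Kdr rose 2.14-fold from fetal to neonatal cells (2.58 ± 0.255 against 5.55 ± 0.364 CPM, log2 1.10, SE 0.252, edgeR adjusted p = 0.00942). In adult cells it was at 0.901 ± 0.413 CPM, 6.15-fold below neonatal (log2 -2.62, SE 0.290, edgeR adjusted p = 4.83e-05) and 2.87-fold below fetal cells (log2 -1.52, SE 0.296, edgeR adjusted p = 0.00126).

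Tek (chromosome 5, 113725717 to 113852799, plus strand), the angiopoietin receptor TIE2, had the smallest fold changes of the 3 receptors. It measured 3.997, 5.203 and 3.88 CPM in fetal, 7.65, 10.3 and 8.61 CPM in neonatal and 6.58, 6.36 and 2.995 CPM in adult replicates 1 to 3. The neonatal libraries stood above the rest, while adult replicate 3 was the lowest of all 9. Tek rose 2.02-fold from fetal to neonatal cells (4.36 ± 0.733 against 8.84 ± 1.33 CPM, log2 1.02, SE 0.279, edgeR adjusted p = 0.0202) and fell 1.67-fold from neonatal to adult cells (5.31 ± 2.01 CPM, log2 -0.74, SE 0.282, edgeR adjusted p = 0.0440). The rise no longer passed when fetal replicate 1 (edgeR adjusted p = 0.0546), neonatal replicate 2 (0.0810) or neonatal replicate 3 (0.0552) was left out, in a range over the alternatives of 0.00322 to 0.0810. The fall no longer passed when fetal replicate 1 (edgeR adjusted p = 0.0530), neonatal replicate 1 (0.0562), 2 (0.142) or 3 (0.0822) or adult replicate 3 (0.0847) was left out, nor with scaling by library size alone (0.0552), in a range of 0.0243 to 0.142. Between fetal and adult cells the log2 fold change was 0.28 (edgeR adjusted p = 0.399), and 0.57 with a call without adult replicate 3 (edgeR adjusted p = 0.0359).

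Endothelial cells are the classical source of these receptors, so their markers were read beside them. The 11 endothelial markers in the table, of 13 listed, summed to 17.6 to 28.1 CPM in fetal, 23.4 to 25.7 in neonatal and 41.0 to 49.4 CPM in adult libraries. The 28.1 CPM was in fetal replicate 3, against 19.4 and 17.6 CPM in fetal replicates 1 and 2. Robo4 was at 0 in every library and Cldn5 at 0 in the fetal ones. Pecam1, an adhesion molecule of endothelial cells and some leukocytes, measured 0.324, 0.573 and 1.009 CPM in fetal, 0.660, 0.697 and 0.971 in neonatal and 10.3, 6.07 and 5.09 CPM in adult replicates 1 to 3. Cdh5, the endothelial cadherin, measured 0.324, 0.176 and 0.266 CPM in fetal, 1.65, 1.21 and 1.88 in neonatal and 5.66, 4.33 and 2.70 CPM in adult replicates. Both were called higher in adult than in fetal cells (log2 3.48, edgeR adjusted p = 6.10e-05 for Pecam1, and log2 4.03, edgeR adjusted p = 1.73e-05 for Cdh5). Of the 7 markers tested, 3 were higher and 1 lower in adult than in fetal cells (57.1%, beside 70.5% of all genes called), and 4 were higher in adult than in neonatal cells (57.1%, beside 63.5%). The marker that was lower was Plvap, a protein of endothelial diaphragms, at 2.79 ± 1.21 CPM in fetal and 1.09 ± 0.277 CPM in adult cells (log2 -1.34, edgeR adjusted p = 0.00928). From fetal to neonatal cells Cdh5 was called higher (log2 2.61, edgeR adjusted p = 0.00176) and Plvap lower (log2 -2.03, edgeR adjusted p = 0.00368). No other marker was called there (28.6% of the 7, beside 36.3% of all genes). Per exon length, adult Tie1 was at 18.4 ± 0.522 CPM per kilobase, above Pecam1 at 3.42 ± 1.33 and Cdh5 at 1.66 ± 0.583, whereas Tek was at 1.16 ± 0.441 and Kdr at 0.153 ± 0.0703. Pecam1 and Cdh5 were highest in adult replicate 1 and lowest in adult replicate 3, whereas Tie1 differed little between adult libraries. Not each endothelial marker followed these 2. Esam shared their order (12.0, 8.16 and 7.49 CPM in adult replicates 1 to 3). Erg went the other way (4.21, 10.3 and 12.1 CPM), and Egfl7 differed little (11.8, 11.6 and 10.7 CPM). The macrophage marker Csf1r was at 6.31 ± 7.47, 28.3 ± 1.40 and 510 ± 123 CPM in fetal, neonatal and adult cells. It measured 1.84, 2.16 and 14.9 CPM in fetal and 377, 534 and 620 CPM in adult replicates 1 to 3. The part of either cell type in the receptor levels was not tested.

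**Figure D4:**
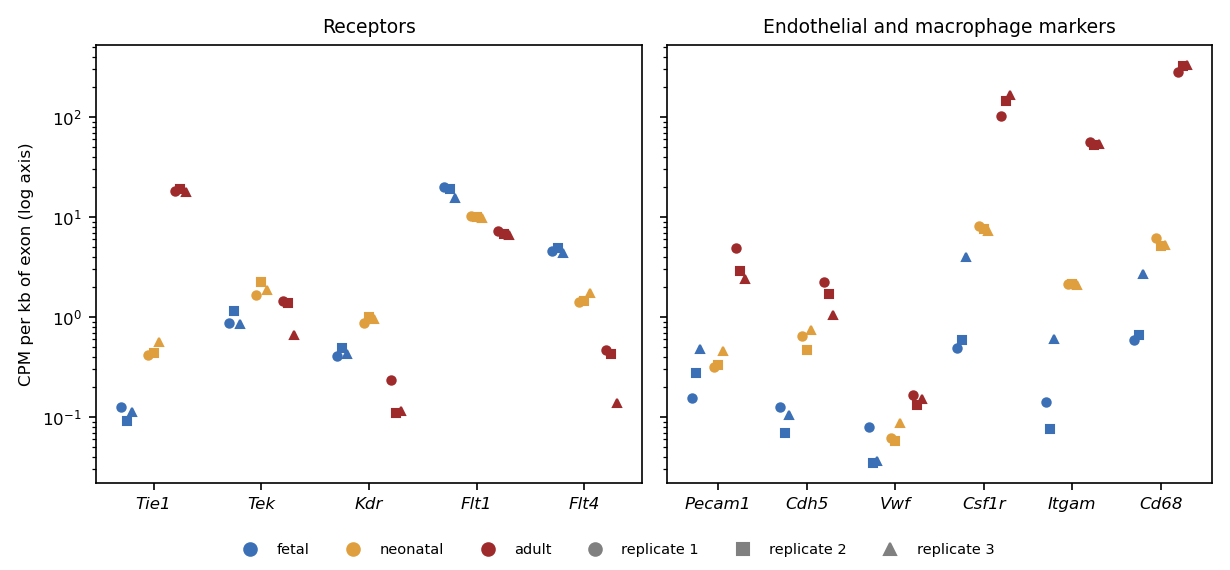
CPM per kilobase of exon on a log axis, 1 point per library, coloured by age, for the receptors Tie1, Tek, Kdr, Flt1 and Flt4 and for the endothelial markers Pecam1, Cdh5 and Vwf and the macrophage markers Csf1r, Itgam and Cd68. Adult Tie1 (mean 18.4) lies above the 3 endothelial markers and adult Kdr (mean 0.153) below Pecam1 (3.42) and Cdh5 (1.66), while the macrophage markers reach higher adult levels than any of these receptors.

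Ranked per exon length, the ligands stood above the receptors at each age, except Tie1 in adult cells. In fetal cells Vegfc (48.9 ± 21.4 CPM per kilobase) and Vegfa (46.6 ± 9.74) led with overlapping libraries, followed by Pgf (18.7 ± 6.64) and Vegfb (11.1 ± 2.75), which also overlapped. Angpt1, Angpt2, Figf and Tek formed a run in which each overlapped the next, from 4.09 ± 0.826 down to 0.956 ± 0.161, with Kdr (0.439 ± 0.0434) and Tie1 (0.110 ± 0.0175) below. In neonatal cells only Vegfb (13.3 ± 0.324) and Pgf (12.7 ± 0.667) overlapped, and the order was Vegfc (86.3 ± 2.19), Vegfa (56.8 ± 2.08), Figf (35.7 ± 0.503), Angpt1 (15.2 ± 1.10), that pair, Angpt2 (7.10 ± 0.516), Tek (1.94 ± 0.291), Kdr (0.944 ± 0.0620) and Tie1 (0.472 ± 0.0765). In adult cells Figf led without overlap at 179.5 ± 70.2. Vegfa (85.9 ± 1.21) and Vegfc (82.1 ± 28.2) overlapped, as did Vegfb (25.1 ± 4.36) with Angpt1 (22.9 ± 9.03) and Angpt1 with Tie1, while Angpt2 (1.603 ± 0.402) overlapped Tek.

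Within an age, several of the genes had the same library lowest or highest. Fetal replicate 3 was the lowest fetal library for 7 of the 10 (Vegfb, Vegfc, Figf, Pgf, Angpt1, Angpt2 and Tek) and the highest for Vegfa. Adult replicate 1 was the highest adult library for 6 (Vegfb, Vegfc, Figf, Angpt1, Tek and Kdr). The share of all genes with these orders was not taken, so the counts cannot be read as particular to the 10 genes. Adult replicate 1 also had the lowest macrophage marker sum of the adult libraries, 4383 CPM against 5303 and 6072, and the highest endothelial one, 49.4 CPM against 43.9 and 41.0. Its mural (206 CPM against 347 and 363) and fibroblast sums (22236 CPM against 27710 and 29822) were also the lowest. Of the mural markers, Notch3, Myh11 (94.6 CPM against 192 and 210), Cspg4 and Rgs5 were lowest there. Kcnj8, Abcc9 and Des (16.5 CPM against 14.7 and 12.6) were highest there. Single fibroblast markers went both ways there, with Col1a1 lowest (11890 CPM against 15691 and 17313) and Pdgfra highest (669 CPM against 384 and 245). The part of these cell types was not tested. Without adult replicate 1 the number of the 10 genes called stayed at 6, 6 and 7 in the 3 comparisons, beside 38.2%, 67.0% and 60.1% of all genes.

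**Figure D5:**
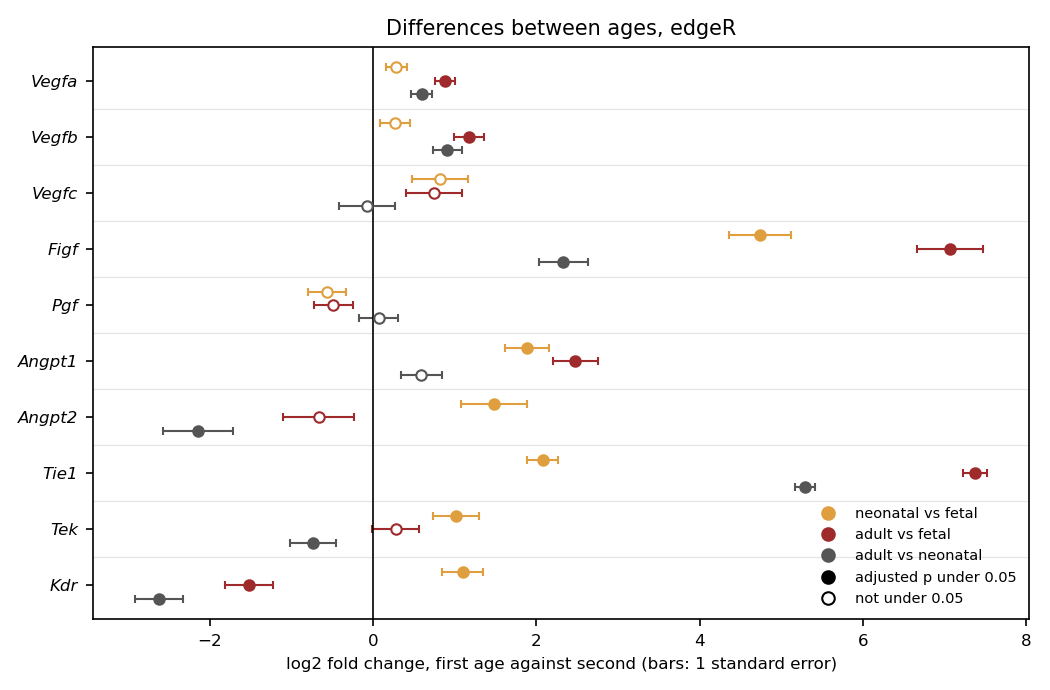
Log2 fold change of each of the 10 genes in the 3 comparisons of ages, with bars of 1 SE and filled points where the edgeR adjusted p was under 0.05. Figf and Tie1 lie far above 0 in each comparison, and Kdr, Angpt2 and Tek change sign between the fetal to neonatal and the neonatal to adult comparison.

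Other genes of the VEGF and angiopoietin system were taken from a list of 10, of which 7 were in the table and tested, while Ptprb, Ccbe1 and Svep1 were not analysed here. From fetal to neonatal cells 3 of the 7 were called, all lower, from fetal to adult cells 2 higher and 3 lower, and from neonatal to adult cells 2 higher and 3 lower. These counts are 42.9%, 71.4% and 71.4% of the 7, beside 36.3%, 70.5% and 63.5% of all genes. Flt1, a receptor of VEGF-A, VEGF-B and Pgf that also acts as a decoy, fell at each step. Fetal cells held 197 ± 26.3 CPM of it, neonatal cells 109 ± 2.06 CPM (log2 -0.85, edgeR adjusted p = 0.000246) and adult cells 74.8 ± 3.52 CPM (log2 -0.54 from neonatal, edgeR adjusted p = 0.000861). Flt4, the receptor of VEGF-C and VEGF-D, fell from 20.3 ± 1.19 to 6.69 ± 0.772 CPM (log2 -1.60, edgeR adjusted p = 0.00174) and then to 1.51 ± 0.798 CPM (log2 -2.13, edgeR adjusted p = 0.000272). Flt4 fell over the interval in which its ligand gene Figf rose. The 3 lymphatic endothelial markers in the table, of 4 listed, summed to 9.30 to 26.4 CPM in fetal libraries. The sums were 3.25 to 3.30 CPM in neonatal and 5.17 to 8.96 CPM in adult libraries. Most of the 26.4 CPM was Reln in fetal replicate 3 (21.4 CPM, against 3.73 and 3.31). Prox1 was called lower at each step (3.09, 1.52 and 0.670 CPM in fetal, neonatal and adult cells). Lyve1, most of the adult sum, fell and then rose (2.46, 0.560 and 6.60 CPM), with each difference called. The part of lymphatic endothelial cells in the Flt4 level was not tested. Per exon length Flt1 was above Kdr at each age, at 18.2 ± 2.44 against 0.439 ± 0.0434 CPM per kilobase in fetal and 6.93 ± 0.326 against 0.153 ± 0.0703 in adult cells.

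Co-receptors and other partners were measured as well. Nrp1, which binds VEGF-A and semaphorins, was at 106 ± 34.3, 156 ± 17.01 and 79.1 ± 7.31 CPM in fetal, neonatal and adult cells and fell from neonatal to adult cells (log2 -0.98, edgeR adjusted p = 0.00396). Without fetal replicate 3 it was also called from fetal to neonatal (log2 0.32, edgeR adjusted p = 0.0300, and 0.0355 without fetal replicate 2) and from fetal to adult cells (log2 -0.67, edgeR adjusted p = 0.000159). With all libraries its fetal to neonatal difference was called by DESeq2 (adjusted p = 0.0376) and with a replicate block (edgeR adjusted p = 0.0368). Scaling by library size alone called its fetal to adult difference (edgeR adjusted p = 0.0292). Nrp2, which binds VEGF-C, was at 133 ± 41.7, 147 ± 7.51 and 116 ± 3.49 CPM and no pair of ages passed. Without fetal replicate 3, which was the highest fetal library for Nrp2, the fetal to neonatal (log2 0.44, edgeR adjusted p = 0.000167) and neonatal to adult (log2 -0.34, edgeR adjusted p = 0.000126) differences were called. The neonatal to adult one was also called with only the 2 ages compared in the fit (log2 -0.35, edgeR adjusted p = 0.000505). Plxnd1, a semaphorin receptor of endothelial and other cells, was at 41.4 ± 6.93 CPM in fetal and 43.2 ± 1.92 CPM in neonatal cells, and adult cells were higher at 270.3 ± 9.46 CPM (log2 2.71 and 2.65, edgeR adjusted p = 7.51e-08 and 1.52e-07). Adamts3, a protease that takes part in VEGF-C processing, fell from 12.3 ± 0.252 CPM in fetal to 3.401 ± 0.557 CPM in neonatal cells (log2 -1.85, edgeR adjusted p = 0.0137) and was at 3.21 ± 2.77 CPM in adult cells. Its fall did not pass without neonatal replicate 2 or 3 (edgeR adjusted p = 0.0551 and 0.0591), and without adult replicate 1 a further difference from neonatal to adult cells was called (log2 -1.04, edgeR adjusted p = 0.0115). The angiopoietin gene Angpt4 had 1, 1 and 4 counts in fetal, 1, 0 and 1 in neonatal and 35, 19 and 16 counts in adult replicates 1 to 3. It was called higher in adult cells (edgeR adjusted p = 0.000374 against fetal and 0.000252 against neonatal), at least 10.5-fold above neonatal cells on a floor of 3 counts per library.

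Vegfa is a textbook target of the hypoxia-inducible factors, and 20 genes of that response were listed, of which 18 were tested. From fetal to neonatal cells 3 were higher and 3 lower, from fetal to adult cells 9 higher and 4 lower, and from neonatal to adult cells 9 higher and 5 lower, with median log2 fold changes of -0.03, 0.43 and 0.31. The shares called were 33.3%, 72.2% and 77.8%, beside 36.3%, 70.5% and 63.5% of all genes, so the first 2 lay near the background. Epas1, which encodes HIF-2 alpha, rose from 23.1 ± 7.09 in fetal to 153 ± 4.37 CPM in neonatal cells (log2 2.73, edgeR adjusted p = 3.90e-05) and was at 130.0 ± 8.86 CPM in adult cells (log2 2.49 from fetal, edgeR adjusted p = 4.82e-06). The neonatal to adult difference of Epas1 was called only without fetal replicate 3 or with fetal libraries out of the fit (log2 -0.24, edgeR adjusted p = 0.00253, and log2 -0.25, edgeR adjusted p = 0.00453). Of the effectors, Ndrg1 was at 17.3 ± 7.37 and 13.7 ± 0.434 CPM and rose to 164 ± 23.2 CPM in adult cells (log2 3.25 from fetal, edgeR adjusted p = 5.95e-06). Ldha, of lactate production, fell from 110.0 ± 4.40 to 87.5 ± 0.451 and rose to 153 ± 7.74 CPM in adult cells (log2 -0.33, edgeR adjusted p = 0.00317, then log2 0.80, edgeR adjusted p = 4.44e-06), and the glucose transporter Slc2a1 fell by 0.65 on the log2 scale from fetal to neonatal cells (edgeR adjusted p = 0.00180) and was higher in adult cells than in either (log2 0.52, edgeR adjusted p = 0.00148 against fetal, and log2 1.17, edgeR adjusted p = 1.33e-05 against neonatal). Adm, the vasodilator adrenomedullin, rose from 42.5 ± 10.7 to 91.9 ± 2.56 CPM in neonatal cells (log2 1.11, edgeR adjusted p = 0.0293), a call lost without fetal replicate 2 or 3 or any 1 neonatal library (adjusted p from 0.0554 to 0.146). Adult cells held 655 ± 332 CPM of Adm, higher than fetal cells (log2 3.95, edgeR adjusted p = 1.42e-05) and than neonatal cells (log2 2.83, edgeR adjusted p = 0.000113), and both calls held under each alternative. In adult cells the carbonic anhydrase Car9 (log2 -3.74 from fetal, edgeR adjusted p = 0.000138) and the prolyl hydroxylase Egln3 (log2 -3.12, edgeR adjusted p = 3.55e-05) had fallen, and Arnt, the partner of the HIF alpha subunits, was lower than in neonatal cells (log2 -0.71, edgeR adjusted p = 0.000470).

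For each of the 10 genes, the 2 other genes most like it were found by Pearson correlation of log2 CPM over the 9 libraries, among 8936 genes with a mean of at least 10 CPM at some age. The libraries form 3 age groups and share depth and scaling within them, so these values mostly describe the differences between ages and carry no test. Figf was most like Timp2, an inhibitor of matrix metalloproteinases (r = 0.998), with 401 genes above 0.95. Tie1 was most like Myo1f (r = 0.999), a myosin of leukocytes, and Mfsd11 (r = 0.999), with 988 genes above 0.95. Vegfa was most like Arl11 and Fgr, a kinase of myeloid cells (both r = 0.996, 266 genes). Angpt1 was most like Add3 and C1qtnf1 (both r = 0.995, 218 genes), and Vegfb most like Pgls (r = 0.994) and RGD1311899 (r = 0.993, 307 genes). Of the genes highest in neonatal cells, Angpt2 was most like Vps13b (r = 0.995) and Notch3, a receptor of mural cells (r = 0.987, 72 genes), and Kdr most like Gramd3 (r = 0.995) and Tbx20, a cardiac transcription factor (r = 0.991, 90 genes). Vegfc was most like Sept4 (r = 0.989) and Csad (r = 0.987, 31 genes). Pgf, with Mtss1 and Lppr2 (both r = 0.959, 3 genes above 0.95), and Tek, with Ube4a (r = 0.939) and Ralgapb (r = 0.925, none above 0.95), had few genes of like pattern. The measure takes no account of size: Timp2 went from 308 ± 42.7 to 998 ± 83.4 CPM from fetal to adult cells, a far smaller ratio than that of Figf.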

How the data were processed

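RNA-seq counts of 9 libraries were analysed, 3 per age. Per the submitters' processing notes, reads were handled with FastQC, Trimmomatic 0.39, STAR 2.5.2b, featureCounts of Subread 1.6.3 and DESeq2. The raw counts were made by the authors with featureCounts on an rn6 annotation, per the file headers. The header names no strand option, so overlapping and antisense genes cannot be told apart by strand, but none of the 10 genes shared exon bases with another gene in the table. In the deposited normalized table, 100% of the signal values over 12786 genes were counts scaled by a single factor for each library, within 0.1% of the count, and the table was used for that check only. No pair of replicates agreed within counting error, and each library counted as 1 sample. Neonatal pairs came closest, with a chi-square per degree of freedom of 2.05 to 2.76, against 3.94 to 97.3 in fetal and 6.76 to 43.0 in adult pairs. That check cannot tell separate animals from separate flasks.

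Totals were 13392825 to 22850491 counts. Differences were tested with edgeR 4.0.16 (R 4.3.3): TMM scaling, filterByExpr by age, robust quasi-likelihood models of all 9 libraries with age as the only term, and Benjamini-Hochberg adjustment over 11337 genes. SEs derive from the fold change and F statistic. CPM used TMM-scaled sizes, and log2 CPM a prior count of 2. The test was checked on simulated data. A floor of 3 counts was used for lower bounds, which cover counting error only. Ratios were compared by exact two-sided permutation tests (SciPy 1.17.1). Alternatives were DESeq2 1.42.0, other scalings, no filter, a replicate block, fits of only the 2 ages compared, and leaving out each library. Same-numbered libraries did not deviate together.

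The genes named are all 10, every tested gene of the system list, the 2 hypoxia genes with the smallest adjusted p per direction and comparison, the 2 genes most like each of the 10 (1 of them is not reported here), and the cell markers Pecam1, Cdh5, Csf1r, Tnnt2 and Col1a1. Col1a2, Des, Plvap, Robo4, Cldn5 and the other single markers named from the cell type lists were added after their values were seen. The members and lists were chosen with earlier results of these data known. Sequences came from RefSeq (GRCr8), and coordinates of genes are those of the count table (rn6).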

Additional observations from a re-analysis of the deposited data

How the results depend on the processing

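Of 480 log2 fold changes of the 10 genes under the alternatives, 451 kept their direction and their side of the threshold, 12 lost a call, 15 gained one and 2 changed sign. The sign changes were in Vegfc from neonatal to adult cells, to 0.042 and 0.083 without adult replicates 2 and 3, in a leave-one-out range of -0.39 to 0.083. The calls lost were in Angpt2 and Tek. Leaving out 1 library gave 4 to 8 of the 10 genes called from fetal to neonatal, 6 to 8 from fetal to adult, 6 to 7 from neonatal to adult and 7 to 9 over any age. In the same fits 21.5 to 40.6%, 65.0 to 74.8%, 53.8 to 72.2% and 70.0 to 82.1% of all genes were called. The replicate numbers of the labels share only a number: correlations of same-numbered libraries ran from -0.0649 to 0.0521, and a library correlated best with its own number in 3 of 9 pairs. With that number as a replicate block, 7, 7 and 8 genes were called in the 3 comparisons and 9 over any age, beside 32.8%, 68.8%, 61.6% and 75.1% of all genes, with Vegfc (log2 0.92, adjusted p = 0.0483 from fetal to neonatal, and log2 0.78, adjusted p = 0.0443 from fetal to adult) and Angpt1 (log2 0.54, adjusted p = 0.0357 from neonatal to adult) gained. Scaling by library size alone moved the median of all genes by -0.17, -0.11 and 0.06 on the log2 scale, and left 29.0% of the fetal to neonatal calls higher, against 50.4%.

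Of 719 values of other named genes, 689 kept direction and side and 8 changed sign: Nrp2 to -0.042 (library size only, fetal to neonatal) and 0.096 (without fetal replicate 3, fetal to adult), Plxnd1 from fetal to neonatal to -0.099 (library size only) and -0.060 (without fetal replicate 3), Ndrg1 from fetal to neonatal to 0.069 (without fetal replicate 3), and Adamts3 from neonatal to adult to 0.021, 0.13 and 0.31 (without neonatal replicate 1, adult replicate 2 or adult replicate 3). Leaving out 1 library in turn gave -0.32 to 0.096 for that Nrp2 difference, -0.060 to 0.17 for Plxnd1, -0.55 to 0.069 for Ndrg1 and -1.04 to 0.31 for Adamts3. None of these differences was called with all libraries. The fetal to neonatal count of the system list was 2 to 5 when 1 library was left out, with 5 without fetal replicate 3. In the same fits 21.5 to 40.6% of all genes were called, with 40.6% without fetal replicate 3. Leaving out 1 library moved the fetal to neonatal difference in the log2 ratio of Angpt2 to Angpt1 between -0.66 and 0.051, and its sign turned without fetal replicate 1 (0.032) or 2 (0.051). With raw counts in place of counts per length, the ligand mix had Vegfa at 59.3, 49.1 and 43.2% in fetal, neonatal and adult cells, Vegfb at 6.33, 5.23 and 5.61%, Vegfc at 24.4, 29.7 and 15.8%, Figf at 11.7 and 32.7% in neonatal and adult cells, and Pgf at 9.34 and 4.36% in fetal and neonatal cells. Vegfa then led in neonatal cells in place of Vegfc and in adult cells in place of Figf. The longer exons of Vegfa enter that measure. Without any 1 neonatal library, 2476 to 2607 of all genes were called from fetal to neonatal, against 4114. The cause was not tested. Fetal Tie1 (8 to 9 counts), adult Kdr (9 to 18 counts) and Angpt4 rest on few counts.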
